A study of Mus musculus with 6 samples.

Results

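The Janus kinases (Jak) and the signal transducers and activators of transcription (STAT) were described across 6 libraries of mouse round spermatids, germ cells that have finished meiosis and not yet elongated. The set was fixed by name as Jak1, Jak2, Jak3, Tyk2, Stat2, Stat3, Stat4, Stat5b and Stat6, and it was selected on the measured fall of Jak3 in this same comparison of counts. Of these 9 genes, 5 have a row among the 22770 gene rows of the count table: the kinase genes Jak1, Jak3 and Tyk2 and the factor genes Stat3 and Stat4. All 5 passed the filter on low counts. Jak2, Stat2, Stat5b and Stat6 were not analysed here.

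Janus kinases sit on the inner tails of cytokine receptors. When a cytokine brings receptor chains together, the kinases phosphorylate the tails and then the STAT proteins docked there, which pair, enter the nucleus and bind DNA. Jak3 works with the common gamma chain receptor and is best known from lymphocytes, whereas Jak1 and Tyk2 are widely expressed. Stat4 carries the interleukin-12 signal in T cells and is also known from haploid male germ cells, where its protein has been found in developing sperm.

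Polyadenylated RNA was measured by Smart-seq2, a PCR-based full-length cDNA method without molecular identifiers, in 6 libraries: 3 carry the genotype label Eif5a SKO and 3 are wild type. Flow sorting of testis cells on postnatal day 28 gave spermatids mainly at step 8. Eif5a encodes a translation factor. The labels do not spell out SKO, the column headers write cKO, and the promoter that drives the deletion, the strain and the number of animals per library are not given in the sources at hand. Nothing states that the replicates came from separate animals, so SDs and p-values measure the spread between these libraries, which may be technical.

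Library totals ran from 52055193 to 60970931 counts. Eif5a, the targeted gene, had 270 to 338 counts in the SKO libraries and 36162 to 41278 in wild type. SKO replicate 3 stood apart from SKO replicates 1 and 2 on the second principal component, at -71.4 against 40.3 and 37.6. All 14 round spermatid markers had a row. Of these, 8 were called higher in SKO and 0 lower, beside 21.2% and 20.9% of all genes tested. Their summed level was 10534 to 11480 CPM in SKO and 7206 to 8077 CPM in wild type. CPM is edgeR's depth-scaled count, with TMM factors, and ± after a mean in CPM gives the SD with n = 3. Fold changes are SKO against wild type from edgeR, on the log2 scale, with their standard error.

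Jak3 was the member with the widest difference between the groups. It had 484, 586 and 505 counts in wild-type replicates 1, 2 and 3, and 18, 12 and 16 counts in SKO replicates 1, 2 and 3. These corresponded to 8.24, 9.99 and 8.09 CPM in wild type against 0.372, 0.223 and 0.317 CPM in SKO. The groups did not overlap, and every SKO library lay far below every wild-type library. The mean went from 8.78 ± 1.05 CPM to 0.304 ± 0.0754 CPM (SD, n = 3 each), so that 3.46% of the wild-type level was left, a log2 fold change of -4.85 ± 0.28. Because this fall is what the set was chosen for, it is given as a description. Its call in the fit over all genes is counted below but not read as evidence. In these bulk libraries, fewer cells that express a gene and less of its RNA per cell cannot be told apart.

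**Figure D1:**
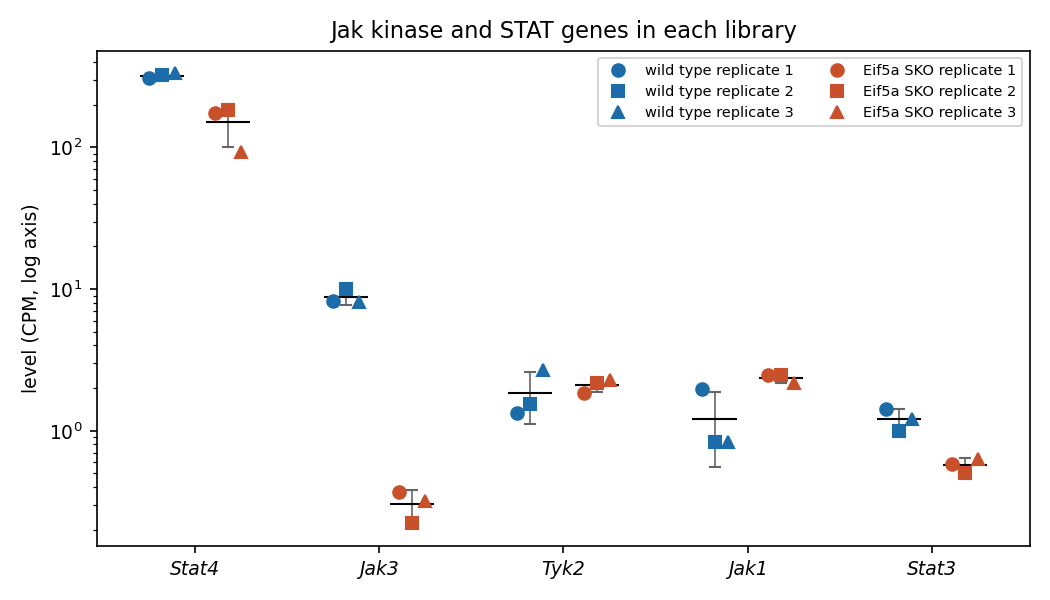
Level of each of the 5 genes in each library, in CPM on a log axis; symbols mark replicates, blue is wild type, red is Eif5a SKO, and black lines and grey bars are the mean and SD of 3 libraries. Jak3 drops from 8.09 to 9.99 CPM in wild type to 0.223 to 0.372 CPM in SKO, and Stat4 in SKO replicate 3 lies below the other libraries.

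Reads of Jak3 and of its neighbour Insl3, which encodes a hormone of Leydig cells, cannot be fully separated. Jak3 lies on the plus strand of chr8:71676296-71690575 (GRCm38), and Insl3 lies inside that span at chr8:71689214-71690575 on the same strand. GENCODE M21 lists 3 coding transcripts of Jak3. One of them, with 25 exons and a length of 4019 bases, ends in an exon that shares 404 bases with the exons of Insl3, which is 64.8% of the exon bases of Insl3 and 7.55% of those of Jak3. The other coding transcripts end before Insl3 and share 0 bases with it.

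Insl3 had 0, 0 and 16 counts in wild-type replicates 1, 2 and 3 and 339, 51 and 414 counts in SKO replicates 1, 2 and 3. Its level was therefore high in the libraries where Jak3 was low. Added together, the counts of Jak3 and Insl3 gave 8.24, 9.99 and 8.35 CPM in wild type against 7.37, 1.17 and 8.51 CPM in SKO. On that sum the groups overlapped, SKO replicate 2 alone lay far below wild type, and the log2 fold change was -0.64 ± 0.53, beside -4.85 for Jak3 alone. The sum takes in all Insl3 counts and not only those of the shared bases, so it is not an estimate of Jak3. SKO replicate 2 had the lowest count of both genes among the SKO libraries. The summed level of the Leydig cell markers, which include Insl3 itself, was the lowest of the SKO libraries there (8.02 CPM). One of them, Cyp17a1, which encodes an enzyme of androgen synthesis, was at 14.3, 1.84 and 15.2 CPM in SKO replicates 1, 2 and 3 and at 0.170 to 1.91 CPM in wild type. Star, Cyp11a1 and Hsd3b1 were also lowest in replicate 2 among the SKO libraries, whereas Lhcgr was highest there (0.798 CPM). In wild-type replicate 3, Hsd3b1 (13.6 CPM) and Lhcgr (1.51 CPM) exceeded every SKO library. Whether reads of the shared exon were given to Insl3, to Jak3 or to neither is not given in the sources at hand, and the part of the overlap in the fall of Jak3 was not tested.

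**Figure D2:**
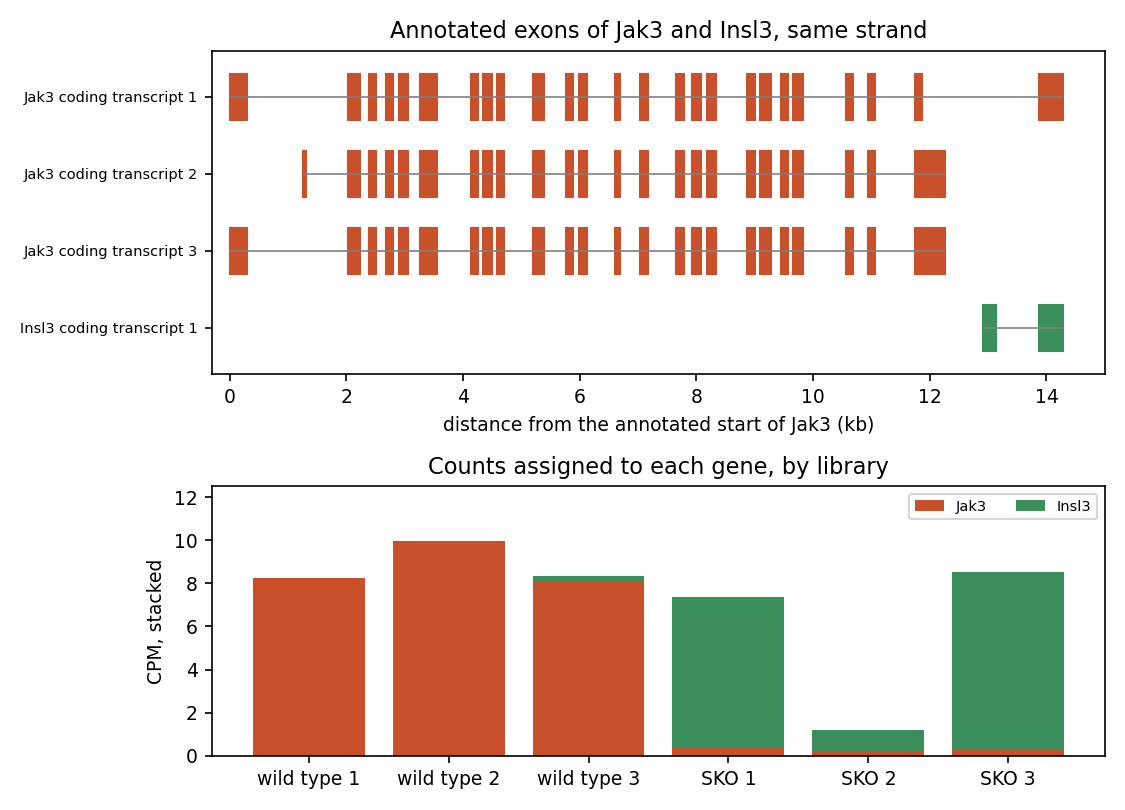
Upper panel, annotated exons of the coding transcripts of Jak3 (red) and Insl3 (green) against the distance in kb from the annotated start of Jak3; lower panel, CPM of Jak3 and Insl3 stacked in each library. The last exon of 1 Jak3 transcript coincides with the last Insl3 exon, and Insl3 makes up most of the summed bar in all 3 SKO libraries.

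Jak3 is best known from immune cells, so markers of such cells are given beside it. Of 14 listed macrophage markers 10 had a row. Their summed level was 82.2 to 108.8 CPM in SKO and 32.5 to 38.9 CPM in wild type, mostly from Fcgr3. Of 9 tested, 4 were called higher and 1 lower, beside 21.2% and 20.9% of all genes. Of 12 listed lymphocyte markers 5 had a row, with 3 called higher and 2 lower, beside the same shares of all genes. Their sum was 19.0 to 23.0 CPM in SKO and 7.41 to 9.52 CPM in wild type. Both sums were thus higher in the group in which Jak3 was lower, and the part of such cells in the Jak3 values was not tested.

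The genes with a profile most like that of Jak3 were found by the root mean square difference of log2 CPM over the 6 libraries, after setting the wild-type mean to 0, among 7763 genes with at least 5 CPM in wild type. The nearest was Adam21, a testis metalloprotease gene, at a difference of 0.348, followed by the folate enzyme gene Aldh1l1 at 0.378 and Ppargc1a, a coactivator of mitochondrial genes, at 0.455. Rnpep, an aminopeptidase gene, followed at 0.532 and Ncs1, which encodes a neuronal calcium sensor, at 0.566. Their log2 fold changes ran from -5.13 to -4.06. All 5 had SKO values wholly below wild type, and with 6 libraries the measure mostly reads the size of that difference.

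The other kinase genes did not follow Jak3. Jak1, the kinase shared by interferon and many interleukin receptors, lies on the minus strand of chr4:101152367-101265282. It stood at 1.98, 0.835 and 0.834 CPM in wild-type replicates 1, 2 and 3 and at 2.46, 2.47 and 2.16 CPM in SKO replicates 1, 2 and 3. Every SKO value was above every wild-type value, though wild-type replicate 1 came close, and the log2 fold change was 0.96 ± 0.38. Without wild-type replicate 1 it was 1.497 ± 0.35. Jak1 did not pass the threshold over all genes with all 6 libraries and did so without wild-type replicate 1. It also passed with the replicate number as a block (1.07 ± 0.38).

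Tyk2, the partner kinase of the interferon alpha and interleukin-12 receptors, lies on the minus strand of chr9:21104068-21131243. It had 1.33, 1.53 and 2.69 CPM in wild-type replicates 1, 2 and 3 and 1.84, 2.17 and 2.30 CPM in SKO replicates 1, 2 and 3. The groups overlapped, with the highest and the lowest value both in wild type, and the log2 fold change was 0.18 ± 0.32. Its sign turned when wild-type replicate 1 was left out (-0.01) and when only library totals were used (-0.05). An antisense RNA gene covers 8.07% of the exon bases of Tyk2, and without a stated strand setting its reads cannot be told from those of Tyk2.

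Among reads of these 3 kinase genes, those of Jak3 were 71.4%, 80.8% and 69.7% in wild-type replicates 1, 2 and 3 (95% Wilson intervals 67.9 to 74.7, 77.8 to 83.5 and 66.2 to 72.9). In SKO replicates 1, 2 and 3 they were 7.96%, 4.58% and 6.64% (intervals 5.10 to 12.2, 2.64 to 7.83 and 4.13 to 10.5). The intervals cover counting error only, since PCR reads without identifiers are not independent molecules. The share compares reads and not molecules, as the genes differ in length.

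Stat4 was by far the most abundant member. It lies on the plus strand of chr1:51987148-52107189 and had 18149, 18901 and 20836 counts in wild-type replicates 1, 2 and 3 against 8542, 9973 and 4688 counts in SKO replicates 1, 2 and 3. The levels were 309.1, 322.2 and 334.0 CPM in wild type against 176.4, 185.0 and 92.8 CPM in SKO. All SKO values lay below all wild-type values, and SKO replicate 3 was well below the other SKO libraries. The mean went from 321.8 ± 12.4 to 151.4 ± 50.9 CPM (SD, n = 3 each), a log2 fold change of -1.09 ± 0.23. Without SKO replicate 3 it was -0.87 ± 0.09. Of the 14 round spermatid markers, 8 were called higher in SKO and 6 did not pass, beside 21.2% of all genes called higher. For 10 of the 14, every SKO library, replicate 3 included, lay above every wild-type library, beside 27.3% of all genes. In SKO replicate 3, Acr (657 CPM) and Tssk1 (647 CPM) went the other way and lay below every wild-type value (at least 796 and 674 CPM). The 8 spermatocyte markers summed to 1369, 1352 and 1060 CPM in SKO replicates 1, 2 and 3 and to 1363 to 1423 CPM in wild type. Of these markers 1 was called higher and 0 lower, beside 21.2% and 20.9% of all genes. Spermatogonia markers, 4 of 7 with a row, summed to 14.9 to 18.4 CPM in SKO and 21.2 to 24.9 CPM in wild type. Among them 0 were called higher and 2 lower. The part of the cell makeup in the Stat4 values was not tested. A transcript gene on the same strand that has no row in the table, Gm28177, shares 26.7% of the exon bases of Stat4, and how such reads were counted is not given in the sources at hand. Gm3940, in an intron of Stat4 on the opposite strand, shares 0 exon bases with it.

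Of the reads of Stat3 and Stat4 together, 99.3% to 99.7% were those of Stat4 in all 6 libraries. The level of Stat4 was 32.3 to 41.3 times that of Jak3 in CPM in the wild-type libraries and 293 to 831 times in the SKO libraries, without division by length.

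Stat3, the factor downstream of interleukin-6 and leukaemia inhibitory factor, lies on the minus strand of chr11:100885098-100939540. It had 83, 58 and 75 counts in wild-type replicates 1, 2 and 3 and 28, 27 and 32 counts in SKO replicates 1, 2 and 3. This was 1.41, 0.989 and 1.20 CPM in wild type against 0.578, 0.501 and 0.634 CPM in SKO. The groups did not overlap, yet all 6 values were low, and the log2 fold change was -1.07 ± 0.38. Its exons share 72 bases with those of Stat5a on the opposite strand, and adding the counts of Stat5a gave -0.71 ± 0.28. That sum, which takes in all Stat5a counts and not only those of the shared bases, did not pass the threshold over all genes. Stat3 alone did not pass with the replicate number as a block (-1.06 ± 0.46), nor after correcting for length and GC content (-0.63 ± 0.37). It also missed the threshold without any one of wild-type replicates 1, 2 and 3 (-0.94, -1.20 and -1.07) and without SKO replicate 1 or 2 (-1.10 and -1.01).

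Of the 5 members, 3 passed edgeR's threshold of a Benjamini-Hochberg adjusted p under 0.05 as lower in SKO (Jak3, Stat3 and Stat4) and 0 as higher. Over all 19776 genes tested, 20.9% were called lower and 21.2% higher, 42% in all. The groups did not overlap for 3 members with SKO below and for 1, Jak1, with SKO above. Over all genes these shares were 28.3% and 27.3%, or 55.6% in either direction. The median log2 fold change was -1.07 over the members and 0.01 over all genes. With library totals in place of TMM scaling the median of all genes moved to -0.23, and the calls over all genes went from 4185 higher and 4127 lower to 2831 higher and 5666 lower. These counts come from the comparison that led to the choice of the set, so nothing is read from them.

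Dividing CPM by the exon length of each gene in kb allowed levels to be ordered. In wild type Stat4 stood at 83.1 ± 3.21, Jak3 at 1.64 ± 0.197, Tyk2 at 0.270 ± 0.107, Jak1 at 0.168 ± 0.0912 and Stat3 at 0.126 ± 0.0223 CPM per kb (SD, n = 3 each). The ranges of Stat4 and Jak3 were clear of their neighbours, while those of Tyk2 and Jak1, and of Jak1 and Stat3, overlapped. In SKO the order was Stat4 at 39.1 ± 13.2, Jak1 at 0.327 ± 0.0243, Tyk2 at 0.306 ± 0.0345, Stat3 at 0.0599 ± 0.00699 and Jak3 at 0.0568 ± 0.0141 CPM per kb. There the ranges of Jak1 and Tyk2 overlapped, as did those of Stat3 and Jak3. Jak3 therefore moved from the second place to the last.

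**Figure D3:**
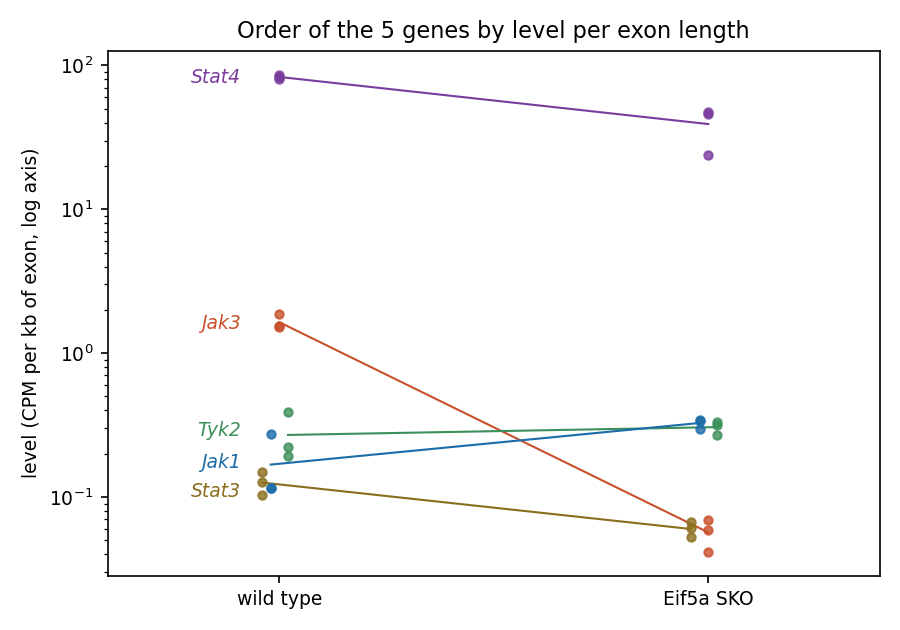
Level in CPM per kb of exon on a log axis in wild type and Eif5a SKO; dots are libraries and lines join the means of 3 libraries. The line of Jak3 crosses those of Tyk2 and Jak1, from 1.64 to 0.0568 CPM per kb, while Stat4 stays on top at 83.1 and 39.1 CPM per kb.

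The sequences just before the annotated starts of the 3 members called lower are shown, though where transcription begins in these cells was not measured. They come from RefSeq (GRCm38.p6), run 5′ to 3′ on the gene's strand, and stop before the first annotated transcribed base. For Jak3 they end 87 bases earlier than the RefSeq start, at the start that GENCODE gives. Another coding transcript of Jak3 starts at chr8:71677551, and Stat4 has a second promoter window at chr1:52007990-52008289. The sequences before those starts are not shown. Capitals mark matches, on either strand, to the GC box CCGCCC and the CCAAT box CCAAT.
Jak3, chr8:71676133-71676295, plus strand: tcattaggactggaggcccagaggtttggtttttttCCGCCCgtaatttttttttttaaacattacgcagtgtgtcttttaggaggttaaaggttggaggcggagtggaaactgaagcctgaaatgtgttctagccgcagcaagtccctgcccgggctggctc
Stat3, chr11:100939541-100939790, minus strand: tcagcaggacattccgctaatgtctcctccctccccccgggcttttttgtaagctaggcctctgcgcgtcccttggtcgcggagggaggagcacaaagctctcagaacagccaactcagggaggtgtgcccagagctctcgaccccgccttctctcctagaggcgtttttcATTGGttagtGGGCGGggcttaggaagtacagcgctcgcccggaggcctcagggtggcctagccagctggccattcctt
Stat4, chr1:51986898-51987147, plus strand: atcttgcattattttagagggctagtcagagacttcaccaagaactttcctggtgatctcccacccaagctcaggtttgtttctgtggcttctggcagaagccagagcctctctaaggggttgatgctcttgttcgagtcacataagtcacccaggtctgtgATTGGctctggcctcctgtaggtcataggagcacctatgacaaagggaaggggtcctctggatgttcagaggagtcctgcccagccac

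In the full 300-base windows, which run from 250 bases before to 50 after each RefSeq start, the STAT motif TTCNNNGAA and the same motif with 1 more N had 0 matches in all 5 members, against 8.30% and 6.95% of the 32851 windows of all genes. The cyclic AMP response element TGACGTCA, the site of the spermatid activator CREM, had 1 match in the members, in Jak1, and was in 1.79% of all windows. Its shorter part TGACG, which also lies inside TGACGTCA, was found in Jak1 and Stat4 and in 20.8% of all windows. GC boxes were in Jak1, Jak3, Tyk2 and Stat3 and in 35.7% of all windows, and the CCAAT box in every member but Jak3 and in 37.4%. TATAAA had 0 matches in the members and was in 13.6%. Members are counted here by gene, and the shares of all windows by window. Stat4 has 2 windows, of which only the first held TGACG and the CCAAT box. Its second window had 0 matches to each of these motifs. The Jak3 window held the GC box alone. These are matches of letters and not bound sites.

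The rest of the pathway was described from lists of ligands, receptors, partners, inhibitors and targets. Apart from the members, 92 of 172 listed genes had a row and 84 passed the filter on low counts. Of these 15 were higher and 14 lower, or 17.9% and 16.7%, beside 21.2% and 20.9% of all genes, and the median log2 fold change was 0.12 against 0.01. With library totals, 9 were higher and 21 lower. Without wild-type replicate 1, 9 were higher. Without wild-type replicate 2 or 3, 9 were lower.

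Ligands were low. Only 12 of 40 had a row and 7 were tested, of which 0 were called by edgeR, DESeq2 or limma-voom. Over all genes edgeR called 42%. At an unadjusted edgeR p under 0.05 there was 1, Il11. Il11, a cytokine of the interleukin-6 family, was the highest, with 10.1, 9.99 and 11.1 CPM in wild type against 11.6, 14.6 and 16.4 CPM in SKO (log2 fold change 0.45 ± 0.18, edgeR adjusted p = 0.0622). Without SKO replicate 1 it passed, at 0.56 (edgeR adjusted p = 0.0338), as it did after the correction for length and GC content and with a stricter filter on low levels (0.0156 and 0.0431). The other ligands tested had wild-type means of at most 1.01 CPM.

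Of 44 receptor genes 21 had a row and were tested; 2 rose, 2 fell, and the median was 0.16, beside 21.2% higher and 20.9% lower over all genes. The counts were 0 higher and 5 lower with library totals and 4 higher after the length and GC correction, and 0 were higher without wild-type replicate 1 or 3. Il7r, the interleukin-7 receptor chain that signals through Jak1 and Jak3, fell from 1.82, 0.716 and 0.769 CPM in wild type to 0.165, 0.186 and 0.0396 CPM in SKO (log2 fold change -3.06 ± 0.67, edgeR adjusted p = 0.00536). It is also one of the listed lymphocyte markers. Il20ra, a chain of the interleukin-20 receptor, fell by 1.65 ± 0.44, from 1.64 ± 0.716 to 0.522 ± 0.0633 CPM (edgeR adjusted p = 0.0136, and 0.0653 and 0.0576 without wild-type replicates 2 and 3). Lifr, the receptor of leukaemia inhibitory factor, rose from 3.01 ± 0.968 to 6.52 ± 2.53 CPM (1.12 ± 0.32, edgeR adjusted p = 0.0203), a call lost without wild-type replicate 1 or 3 or SKO replicate 1 (edgeR adjusted p = 0.0746, 0.0723 and 0.0948). Il3ra, the interleukin-3 receptor chain, was at 5.22 ± 0.415 CPM in wild type against 7.70, 6.05 and 12.3 CPM in SKO (0.73 ± 0.26, edgeR adjusted p = 0.0464). Its call ended with the replicate number as a block (edgeR adjusted p = 0.0585) and in 5 of 6 fits that left out 1 library, and without SKO replicate 3 the value was 0.36. Il2rg, the common gamma chain that binds Jak3, was at 0.545, 0.324 and 0.609 CPM in wild type against 1.22, 0.390 and 0.337 CPM in SKO, so the groups overlapped (edgeR adjusted p = 0.642). It was picked out for its tie to Jak3, after its values were seen.

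**Figure D4:**
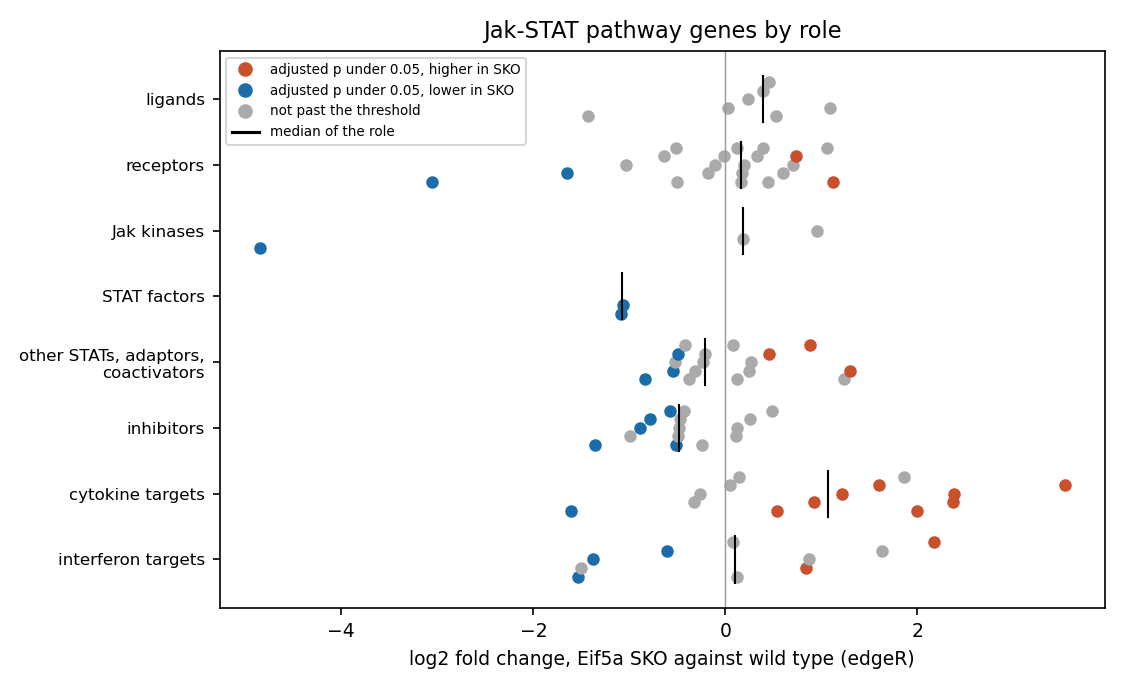
Log2 fold change of each tested gene by role, from edgeR over 3 SKO and 3 wild-type libraries; red and blue dots passed the threshold as higher and lower in SKO, grey dots did not, and black lines are medians. Inhibitors have a median of -0.49 with 5 blue and 0 red dots, cytokine targets a median of 1.07 with 8 red dots and 1 blue, and Jak3 lies farthest to the left. Over all genes 21.2% were called higher and 20.9% lower.

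Among the other STAT genes, adaptors and coactivators 17 of 17 were tested. Of these 3 were higher and 3 lower, beside 21.2% and 20.9% of all genes, and the median was -0.21. Stat5a was at 1.17 ± 0.268 CPM in wild type against 0.875 ± 0.227 CPM in SKO and did not pass (edgeR adjusted p = 0.406). The acetyltransferase genes Crebbp and Ep300, coactivators of STATs and many other factors, both rose. Crebbp went from 25.0, 22.0 and 28.1 CPM to 45.2, 50.6 and 42.7 CPM (0.88 ± 0.15, edgeR adjusted p = 0.00160), and Ep300 from 3.52 ± 0.409 to 8.65 ± 4.12 CPM (1.30 ± 0.31, edgeR adjusted p = 0.00845). SKO replicate 3, at 13.4 CPM, was the highest for Ep300. Stam, an adaptor of receptor sorting, fell by 0.54 ± 0.16 and Sos1, an exchange factor of Ras, by 0.84 ± 0.26 (edgeR adjusted p = 0.0245 and 0.0260). The Stam call ended without any one of wild-type replicates 1, 2 and 3 (edgeR adjusted p = 0.0713, 0.0731 and 0.0742). The Sos1 call ended without wild-type replicate 2 or 3 or SKO replicate 2 (edgeR adjusted p = 0.0762, 0.103 and 0.0724).

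The remaining called partners, named after their values were seen, were the chaperone gene Hsp90aa1 and its kinase-loading partner Cdc37, which serve many kinases. Hsp90aa1 rose from 2116 ± 99.1 to 2904 ± 125.2 CPM (0.46 ± 0.11, edgeR adjusted p = 0.00985, and 0.0661 without wild-type replicate 1). Cdc37 fell from 54.8 ± 1.59 to 39.0 ± 7.95 CPM (-0.49 ± 0.17, edgeR adjusted p = 0.0400). Its call ended with the replicate number as a block (edgeR adjusted p = 0.0579), without any one of the 3 wild-type replicates (0.126, 0.0887 and 0.0992) or SKO replicate 2 (0.0942), and after the length and GC correction its value was -0.14.

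Inhibitors of the pathway were lower or did not pass. Of 20 listed 17 had a row and 15 were tested. Of these 5 were lower and 0 higher, beside 20.9% and 21.2% of all genes, and the median was -0.49. For 9 of the 15 every SKO value was below every wild-type value, a share of 60.0% beside 28.3% of all genes. Sh2b3, an adaptor that restrains Jak2 in blood cells, fell from 27.5, 36.0 and 21.2 CPM to 8.92, 8.87 and 15.3 CPM (-1.36 ± 0.26, edgeR adjusted p = 0.00290). Ptpn1, a phosphatase of Jak2 and Tyk2, fell from 45.9, 56.5 and 40.4 CPM to 26.0, 21.5 and 29.6 CPM (-0.89 ± 0.18, edgeR adjusted p = 0.00366). After the length and GC correction the value of Sh2b3 was -0.75 ± 0.19 (edgeR adjusted p = 0.0102). That of Ptpn1 was then -0.34 ± 0.12 (edgeR adjusted p = 0.0536).

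The other 3 that fell, named after their values were seen, were Pias4, a SUMO ligase that binds STATs, Ptpn2, a phosphatase of Jak1 and Jak3, and Cbl, a ubiquitin ligase of receptors. Pias4 dropped from 149.8 ± 23.4 to 86.7 ± 17.0 CPM (-0.79 ± 0.18, edgeR adjusted p = 0.00581), with -0.22 after the length and GC correction (edgeR adjusted p = 0.258). Ptpn2 dropped from 90.2 ± 8.73 to 63.3 ± 9.95 CPM (-0.51 ± 0.16, edgeR adjusted p = 0.0251). It missed the threshold with the replicate block (edgeR adjusted p = 0.0594) and without wild-type replicate 1 or 3 (0.104 and 0.0899). Cbl dropped from 54.0 ± 8.06 to 36.1 ± 3.47 CPM (-0.58 ± 0.16, edgeR adjusted p = 0.0160), and missed it without wild-type replicate 1 or 2 (0.0793 and 0.0667) and after the length and GC correction (0.0502). The count of lower inhibitors was 3 without wild-type replicate 1, 3 after that correction and 8 under library totals alone.

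Pias1 and Pias2, the most abundant inhibitor genes, did not pass and showed the same low SKO replicate 3 as Stat4. Pias1 was at 737.7, 696.8 and 721.1 CPM in wild type against 642.4, 667.2 and 229.6 CPM in SKO (-0.49 ± 0.32, edgeR adjusted p = 0.252). Pias2 was at 832.6 ± 27.4 CPM in wild type against 708.1, 656.8 and 405.4 CPM in SKO (-0.50 ± 0.19, edgeR adjusted p = 0.0621). It passed in 7 alternatives, among them the replicate block (edgeR adjusted p = 0.0499) and the fits without SKO replicate 1 (0.0295) and without SKO replicate 3 (-0.32, 0.00715). Both were picked out for their level after their values were seen. The SOCS genes, the feedback inhibitors that STATs induce, had 0 calls: Socs4 and Socs5 were at 9.70 ± 0.302 and 8.13 ± 1.10 CPM in wild type against 8.20 ± 0.112 and 5.84 ± 0.975 CPM in SKO (edgeR adjusted p = 0.239 and 0.0825).

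Genes that cytokine-activated STATs can induce included Igf1, Gadd45g, Fos, Junb, Pim1, Pim2, Mcl1 and Nampt as higher in SKO. Of 22 listed 15 had a row and 14 were tested, 8 were higher and 1 lower, beside 21.2% and 20.9% of all genes, and the median was 1.07 against 0.01. Igf1, an insulin-like growth factor, rose from 3.17, 4.55 and 4.99 CPM to 17.99, 25.81 and 22.38 CPM (2.38 ± 0.22, edgeR adjusted p = 7.09e-05). Gadd45g, a stress and growth arrest gene, rose from 0.258 ± 0.177 to 3.00 ± 1.41 CPM (3.53 ± 0.54, edgeR adjusted p = 0.000804). Wild-type means were also low for Pim1, Nampt, Junb, Pim2 and Fos, at 1.23, 1.69, 1.90, 2.03 and 2.05 CPM, whereas Mcl1 was at 30.0 CPM. Ccnd3, a D-type cyclin of the cell cycle, fell from 190.4, 202.9 and 184.9 CPM to 88.3, 60.4 and 41.5 CPM (-1.60 ± 0.24, edgeR adjusted p = 0.000684), and its groups were far apart. The count of higher targets was 4 without wild-type replicate 2, 5 without wild-type replicate 1, 5 without SKO replicate 1 and 5 under library totals alone. With the filter of at least 5 CPM in 3 libraries, which leaves out low genes, that count was 3.

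Summed markers of Sertoli cells were higher in every SKO library than in every wild-type library, while those of Leydig cells overlapped between the groups. Of 17 listed Sertoli cell markers 10 had a row, and 9 of 10 were called higher, beside 21.2% of all genes. Their summed level was 57.2 to 211.7 CPM in SKO and 4.22 to 13.8 CPM in wild type. For 9 listed Leydig cell markers, 6 with a row and Insl3 among them, the sum was 8.02 to 44.6 CPM in SKO and 1.26 to 21.6 CPM in wild type. None of these was at 0 in all libraries of a group. Vessel and peritubular markers, 3 of 8 with a row, summed to 16.4 to 34.7 CPM in SKO and 8.43 to 15.1 CPM in wild type, mostly from the smooth muscle actin gene Acta2, whereas Kdr, a receptor gene of vessel cells, fell from 4.61 to 1.10 CPM (edgeR adjusted p = 0.000436). The part of such cells in the higher targets was not tested.

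Of 30 listed interferon targets 10 had a row and were tested. Of these 2 were higher, 3 lower and 5 did not pass, beside 21.2% higher and 20.9% lower over all genes, and the median was 0.10. B2m, the light chain of class I antigen presentation, rose from 9.86, 10.98 and 13.51 CPM to 47.1, 55.9 and 52.0 CPM (2.17 ± 0.17, edgeR adjusted p = 3.13e-05). Ifi27 rose from 6.68 ± 1.42 to 11.96 ± 1.75 CPM (0.84 ± 0.20, edgeR adjusted p = 0.00902). Mx1, an antiviral GTPase gene, fell from 4.41, 4.62 and 4.65 CPM to 0.991, 1.99 and 1.72 CPM (-1.54 ± 0.28, edgeR adjusted p = 0.00221). Isg20, an exonuclease gene, fell from 133.4 ± 3.73 to 87.5 ± 2.94 CPM (-0.61 ± 0.12, edgeR adjusted p = 0.00295). Eif2ak2, the kinase gene that senses double-stranded RNA, named after its values were seen, fell from 8.36 ± 1.54 to 3.21 ± 1.04 CPM (-1.38 ± 0.28, edgeR adjusted p = 0.00341). These 5 calls also passed in each of the 6 fits that left out 1 library, with edgeR adjusted p up to 0.0455 (Ifi27).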

How the data were processed

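RNA of 3 Eif5a SKO and 3 wild-type libraries was measured by Smart-seq2. The submitters' processing notes name FastQC, Trim Galore 0.6.4, HISAT2 2.0.5, featureCounts 1.5.0-p3 and the mouse build GRCm38, without their settings. The values used are the raw counts per gene that the authors deposited. Which gene annotation was counted, whether strand was used and how reads on several genes were handled are not given in the sources at hand.

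Counts of 22770 gene rows were filtered with filterByExpr (minimum count 10, minimum total 15), scaled by TMM and tested with edgeR 4.0.16 (quasi-likelihood, R 4.3.3) over both groups, with Benjamini-Hochberg adjustment over 19776 genes and a threshold of 0.05. The script was tested on simulated data in which 200 of 19703 genes were changed. There it recovered 38% of 2-fold and 82% of 4-fold changes, so a gene that did not pass may still differ. Of the gene rows, 96.7% matched 1 GENCODE M21 name, which gave coordinates, exon lengths and overlaps. Promoters came from RefSeq tables of GRCm38.p6, in which all 5 members with a row were found. Library totals of 52055193 to 60970931 make 1 count worth 0.0160 to 0.0207 CPM. Replicates of a group differed by more than sampling noise (chi-square per degree of freedom 14.2 to 141.1).

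The members and lists were chosen with earlier results of these data known. Named were all members, the targeted gene, genes overlapping a member, from each pathway list up to 2 genes called higher and 2 called lower with the lowest adjusted p, and the 5 genes (no clone or model names) with at least 5 CPM in wild type and the profile most like Jak3. Cyp17a1, Star, Cyp11a1, Hsd3b1, Lhcgr, Fcgr3, Acta2, Kdr, Acr, Tssk1, Il11, Socs4, Socs5 and the higher cytokine targets beyond Igf1 and Gadd45g were named after their values were seen. The alternatives tried were DESeq2 1.42.0, DESeq2 size factors in edgeR, limma-voom (limma 3.58.1), upper-quartile scaling, library totals, no filter, at least 5 CPM in 3 libraries, a length and GC correction (loess, span 0.5), the replicate number as a block, summed counts of overlapping genes and each library left out.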

Additional observations from a re-analysis of the deposited data

How the results depend on the processing

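Of 74 values for the 5 members under the alternatives, 58 kept their direction and their side of the threshold, 10 lost the call, 4 gained it and 2 turned sign. For 36 other named genes, 482 of 532 values kept both, 37 lost the call, 12 gained it and 1 turned sign. Tyk2 turned to -0.052 with library totals and to -0.01 without wild-type replicate 1 (-0.01 to 0.552 when 1 library was left out), and Stat5a to 0.109 after the length and GC correction. The count of members called higher was 1 in place of 0 with limma-voom, with the replicate block and with the length and GC correction, and 0 to 1 when 1 library was left out; the gene was Jak1. Members called lower were 2 to 3 when 1 library was left out. Pathway genes called higher were 9 in place of 15 with library totals and those called lower 21 in place of 14; there the calls of Lifr, Il3ra and Hsp90aa1 also ended (adjusted p = 0.0567, 0.173 and 0.120). When 1 library was left out, pathway genes called higher were 9 to 14 and those called lower 9 to 18. Over all genes, leaving out 1 library gave 3064 to 4329 higher and 3025 to 4766 lower, and a minimum of 5 CPM in 3 libraries, which tests 10279 genes, gave 2742 lower. The cause of these changes was not tested, except that fewer genes or samples enter the last fits.

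No pairing by replicate number was seen. Deviations of same-numbered libraries correlated at -0.0655 to -0.0221 across genes and those of other numbers at -0.0265 to 0.0743. With 3 libraries per group this check cannot exclude a pairing, and none is stated in the sources at hand. With the replicate block, 3552 genes were higher and 3666 lower, with 1 higher and 2 lower among the members and 13 and 13 in the pathway. Depth limits low genes: among the members, Stat3 had 27 to 83 counts per library and Jak3 12 to 18 in SKO, and among other named genes Il7r had 2 to 10 in SKO and Gadd45g 8 to 27 in wild type.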
